A study of Musa balbisiana with 10 samples.

Results

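The course of ripening after ethylene gas was followed in the pulp of Klutuk Wulung banana, a cultivar of Musa balbisiana (BB Group), by setting fruit on day 7 against fruit on day 1. The members are the 5 of 10 libraries of the series that came from ethylene-treated fruit: replicates A, B and C on day 7, and replicates A and C on day 1. Fruit of this group was held in a glass container with exogenous ethylene gas at 100 µl/L. It was then kept outside the container at room temperature. Time of ripening and time since the gas therefore change together between the days and cannot be told apart. Control fruit had no ethylene treatment and gave the other 5 libraries, with replicates A, B and C on day 7 and replicates A and B on day 1. RNA of the pulp was sequenced, and each library was quantified in FPKM, fragments scaled to the length of the transcript and to the mapped fragments of the library. The paper calls the replicates biological, but the sources do not say whether each library is from its own fruit, so p-values measure the spread between these libraries.

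Banana is a climacteric fruit, in which ripening comes with a burst of ethylene made by the fruit itself, and gas given from outside can start the process early. During ripening the pulp turns starch into sugars, loosens its cell walls and makes aroma compounds, through changes in the activity of many genes. Ethylene acts through receptors that hold back a signalling chain until the gas binds them, and the chain ends in transcription factors that switch target genes.

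The genes cannot be given by function, because the tables carry only Mba identifiers of the DH PKW v1.1 annotation or loci assembled anew in each library. A RefSeq gene table held 5141 of the 5143 identifiers that stood alone in a tested region, and 5080 of these were listed as protein-coding, but every symbol in it is the identifier itself. For the same reason the pulp was not checked against marker genes. Features were matched between libraries by position, by joining overlapping loci of at least 300 bp into regions, and all positions are 1-based in the DH PKW v1.1 genome.

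Of the 5 libraries, day 7 replicate A was single-end and the other 4 were paired-end. Pearson's r between libraries on log2(FPKM + 1), as a description over 16821 regions, was 0.965 between day 7 replicates B and C and 0.972 between the day 1 replicates. Day 7 replicate A stood apart from its group, with r of 0.941 and 0.944 against B and C, and its regions lay higher by a median of 0.19 on the log2 scale than in either. Between a day 7 and a day 1 library, r was 0.848 to 0.869. The FPKM tables carry no number of fragments and no counting interval was made. The paper lists read totals per library, which were not used here. No 2 libraries held identical values.

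Pulp of ethylene-treated fruit differed between day 7 and day 1 over a large part of the transcriptome. With limma on log2(FPKM + 1) and Benjamini-Hochberg adjustment at 0.05, 4263 of 16821 regions were called, which is 25.3% of those tested. Of these, 2412 regions (14.3% of those tested) were higher on day 7 and 1851 (11.0%) were lower. A difference of at least 1 on the log2 scale was reached by 1445 regions that rose and 1129 that fell, at least 2 by 227 and 201, at least 3 by 51 and 48, and at least 4 by 17 and 14. In all 4263 called regions the day 7 and day 1 libraries did not overlap, beside 57.7% of all regions tested. The split between directions depends on scaling: median-of-ratios scaling moved the median difference over all regions to -0.002 from 0.106, and then 2176 regions were higher and 2385 lower. Both day 1 libraries carried weight in the count, which was 2150 without replicate A and 2126 without replicate C.

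**Figure D1:**
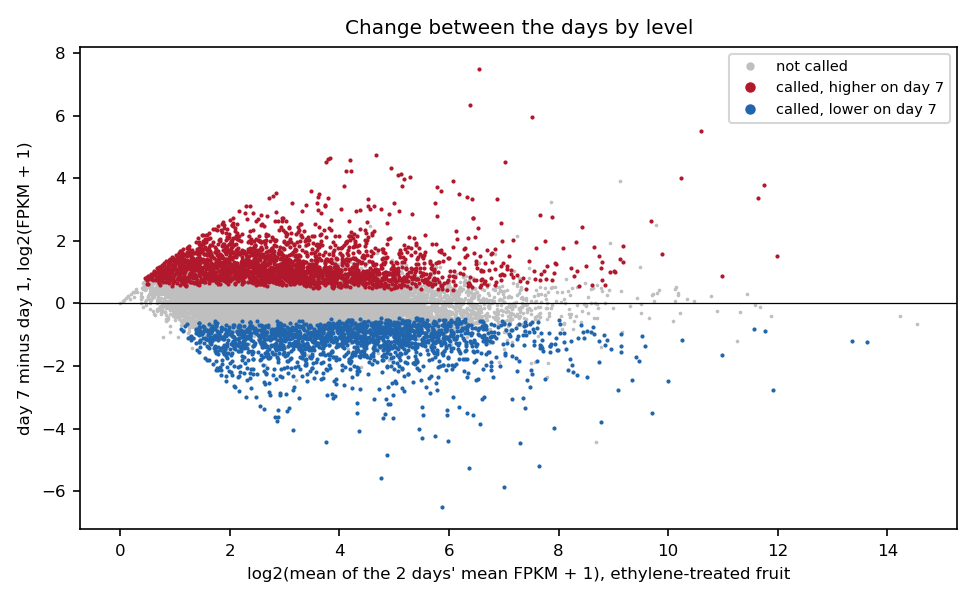
Each point is a region, with log2 of the mean of both days' mean FPKM plus 1 on the horizontal axis and day 7 minus day 1 in log2(FPKM + 1) on the vertical axis, in ethylene-treated fruit. Red points are the 2412 regions called higher on day 7, blue points the 1851 called lower, and grey points were not called, which include regions with large differences and a wide spread between libraries.

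The direction of change went with the level of the region. Among regions with a mean of both days under 10 FPKM, 1538 were called higher and 603 lower on day 7. From 10 to 30 FPKM the numbers were 561 and 596, and from 30 FPKM upward they were 313 and 652, so that 71.8%, 48.5% and 32.4% of the calls in these classes were for higher levels on day 7. Regions under 1 FPKM, which are part of the class under 10 FPKM here and with the other settings, numbered 584. Of these, 146 were called higher and 0 lower, but with a minimum of 1 FPKM over all 10 libraries they could be tested only through higher values in controls. From 1 to 3 FPKM, 528 regions were called higher and 154 lower (77.4% higher), and from 3 to 10 FPKM 864 and 449 (65.8%). Regions a little above 1 FPKM could also need control values to reach the minimum over all 10 libraries. How far this set the shares from 1 to 3 FPKM and under 10 FPKM was not tested. The order of the 3 classes was the same with median-of-ratios scaling, where 64.8%, 36.8% and 24.5% of calls were higher on day 7. It was also the same without the single-end libraries, at 66.0%, 41.9% and 31.4%. With quantile normalization, which gives every library one distribution of values, the shares were 52.4%, 50.9% and 48.9%. Of the FPKM summed over loci of at least 300 bp, the 10 most abundant regions held 14.7% to 19.3% per library on day 7. On day 1 they held 22.2% to 22.4%. Loci under 300 bp, which were left out, held 10.6% of the FPKM summed over all loci in the single-end day 7 replicate A. They held 29.0% and 42.8% in the paired-end day 7 replicates B and C, and 83.3% to 91.1% in the paired-end day 1 libraries. This share also went with layout in control fruit, at 16.0% and 16.2% in single-end and 95.8% to 98.0% in paired-end libraries. The part of either difference between the days in the pattern by level was not tested.

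**Figure D2:**
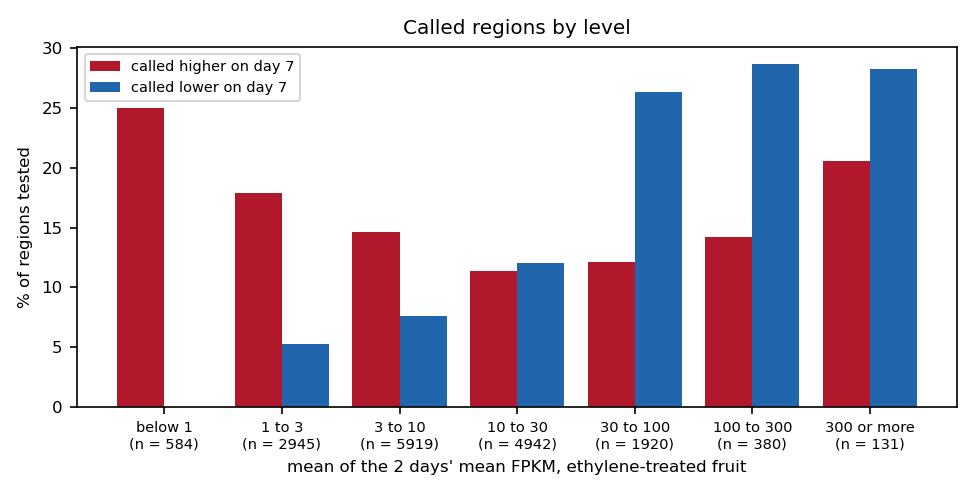
Bars give the percentage of tested regions called higher (red) or lower (blue) on day 7 in ethylene-treated fruit, in 7 classes of the mean of both days' mean FPKM, with the number of regions under each class. Red bars are taller under 10 FPKM, the bars are close from 10 to 30 FPKM, and blue bars are taller from 30 FPKM upward.

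The 8 regions with the largest difference in each direction were taken from 517 called regions that had 1 identifier, 1 locus in each of the 5 libraries, at least 10 FPKM on the higher day and no overlap between the days. The RefSeq table lists all 16 as genes under the same identifier and gives no role for any. All differences are in log2(FPKM + 1), where the 1 added makes changes of regions near 0 look smaller than they are.

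Of the 8 regions that rose, 5 were also abundant in the controls of both days, so that day 1 of the ethylene-treated fruit was the low point. Mba01_g27630.v1.1 (chromosome 1, 21699381 to 21701109) had 117, 202 and 170 FPKM on day 7, against 0.869 and 1.02 FPKM on day 1. Control fruit held 198, 139 and 283 FPKM on day 7 and 125 and 296 FPKM on day 1. The difference in ethylene-treated fruit was 6.36 (SE 0.39, limma adjusted p = 6.8e-06), and the days did not overlap. Mba06_g33080.v1.1 (chromosome 6, 38057605 to 38058897) had 21.4, 29.7 and 25.6 FPKM on day 7 of ethylene-treated fruit, against 0.0729 and 0.0607 FPKM on day 1, a difference of 4.63 (SE 0.38, limma adjusted p = 4.1e-05). Its controls ranged from 13.3 to 52.6 FPKM, which takes in all 3 day 7 values of the ethylene-treated fruit. On the same chromosome, Mba06_g17980.v1.1 (13520025 to 13521257) had 22.8, 25.5 and 26.8 FPKM on day 7, against 0.0885 and 0.184 FPKM on day 1, a difference of 4.52 (SE 0.31, limma adjusted p = 1.2e-05). It too was measured in every control library, at 13.5 to 46.0 FPKM. Mba10_g15000.v1.1 (chromosome 10, 32464400 to 32465514) had 28.2, 36.2 and 31.3 FPKM on day 7, against 0.779 and 0.668 FPKM on day 1, with controls at 31.6 to 71.4 FPKM and a difference of 4.25 (SE 0.29, limma adjusted p = 1.4e-05). Mba08_g30320.v1.1 (chromosome 8, 42188306 to 42190362) had 76.5, 71.6 and 70.4 FPKM on day 7, against 3.47 and 3.50 FPKM on day 1, a ratio of the means of 20.9. It is the only one of the 16 also called between the days in control fruit, with 98.4, 95.1 and 114 FPKM on day 7, against 40.3 and 64.4 FPKM on day 1 (0.99, limma adjusted p = 0.048). In ethylene-treated fruit its difference was 4.04 (SE 0.20, limma adjusted p = 1.9e-06).

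The other 3 regions that rose were near 0 in every control library. Mba01_g05650.v1.1 (chromosome 1, 4160265 to 4161632) showed the largest difference of the 8, with 193, 183 and 178 FPKM on day 7, against 0.0426 FPKM in day 1 replicate A and a listing at 0 in replicate C. Its controls reached 0.149 FPKM at most, and the difference in ethylene-treated fruit was 7.50 (SE 0.18, limma adjusted p = 3.6e-08). Mba01_g20070.v1.1 (chromosome 1, 15435448 to 15436421) had 22.8, 28.1 and 28.4 FPKM on day 7, against 0.0536 and 0.128 FPKM on day 1, and 0.128 FPKM at most in controls. The difference was 4.65 (SE 0.18, limma adjusted p = 5.9e-07). Mba03_g03340.v1.1 (chromosome 3, 2460312 to 2463192) had 51.2, 58.0 and 63.0 FPKM on day 7, against 2.13 and 1.63 FPKM on day 1. It was the only one of these 3 whose day 1 libraries both lay above all controls, which held 0.179 to 0.587 FPKM, and it differed by 4.34 between the days (SE 0.21, limma adjusted p = 1.9e-06).

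All 8 regions that fell were low in the controls of both days, at no more than 7.25 FPKM, and high on day 1 of ethylene-treated fruit. Mba11_g01060.v1.1 (chromosome 11, 1042970 to 1044767) had 0.264, 0.312 and 0.220 FPKM on day 7, against 116 and 113 FPKM on day 1, with a difference of -6.52 (SE 0.20, limma adjusted p = 1.9e-07). Its controls held 0.0278 to 0.449 FPKM, so the day 7 values lay inside the range of untreated fruit. Mba09_g07750.v1.1 (chromosome 9, 5667034 to 5670340) had 3.40, 3.24 and 3.20 FPKM on day 7, against 255 and 247 FPKM on day 1, and controls at 2.63 to 4.09 FPKM. The difference was -5.88 (SE 0.20, limma adjusted p = 2.2e-07). Mba05_g08270.v1.1 (chromosome 5, 6359960 to 6361734) had 0.0943, 0.0925 and 0.120 FPKM on day 7, against 52.9 and 50.9 FPKM on day 1, a difference of -5.58 (SE 0.18, limma adjusted p = 1.9e-07). Mba11_g18710.v1.1 (chromosome 11, 25364778 to 25365815) had 3.47, 2.32 and 3.95 FPKM on day 7, against 165 and 152 FPKM on day 1, a difference of -5.25 (SE 0.37, limma adjusted p = 1.8e-05). Both again had day 7 values inside the range of the controls, which was 0.0401 to 0.303 FPKM for the first and 1.77 to 7.25 FPKM for the second.

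A group of 3 regions that fell lies on chromosome 4. Mba04_g16920.v1.1 (19812174 to 19813301) was listed at 0 in day 7 replicate A and had 0.217 and 0.444 FPKM in B and C, against 25.2 and 24.6 FPKM on day 1, a difference of -4.42 (SE 0.20, limma adjusted p = 1.3e-06). Mba04_g14010.v1.1 (11268111 to 11270611) had 4.47, 2.89 and 2.91 FPKM on day 7, against 84.3 and 86.3 FPKM on day 1, a difference of -4.30 (SE 0.25, limma adjusted p = 5.0e-06). Its controls held 3.15 to 5.71 FPKM, near the day 7 values. Mba04_g14710.v1.1 (11865408 to 11867406) had 3.90, 5.73 and 4.48 FPKM on day 7, against 113 and 126 FPKM on day 1, a difference of -4.41 (SE 0.22, limma adjusted p = 1.9e-06). Unlike the regions above it kept a level over that of the controls on day 7, since these reached 1.06 FPKM at most. The most abundant of the 8, Mba05_g22280.v1.1 (chromosome 5, 34873809 to 34875507), behaved alike, with 63.0, 56.8 and 54.5 FPKM on day 7, against 826 and 805 FPKM on day 1 and at most 0.566 FPKM in controls. It fell by 3.79 on the log2 scale (SE 0.18, limma adjusted p = 1.5e-06), and its mean on day 1 was 14.0 times that on day 7.

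**Figure D3:**
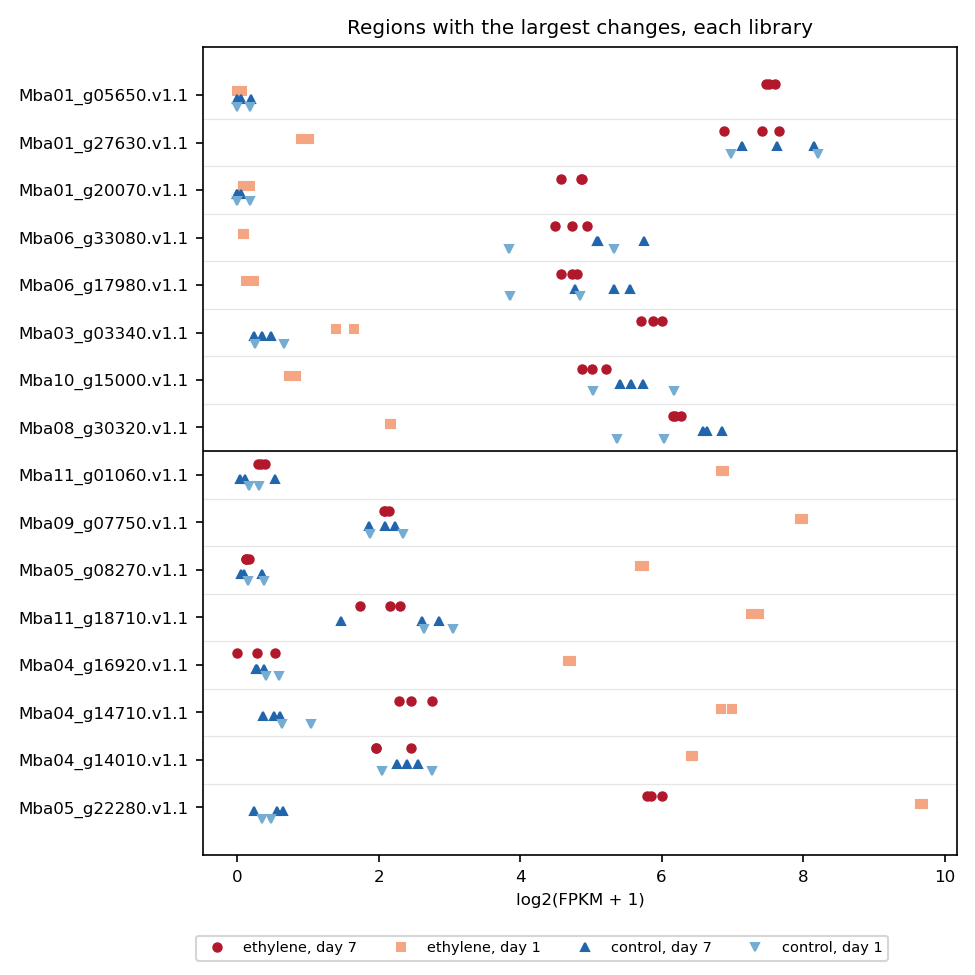
Every point is a library, at its log2(FPKM + 1) on the horizontal axis, for the 8 regions with the largest rise (above the black line) and the largest fall (below it) between the days in ethylene-treated fruit. Ethylene day 7 (dark red) and ethylene day 1 (light red) are far apart in each region, and the controls (blue) lie near day 7 in 5 of the regions that rose and in 6 of those that fell.

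The 16 regions kept their direction under 432 of 432 refits with other settings or with a library left out. They had been picked as the largest called differences in these same values, so this outcome was close to fixed beforehand. Some refits could not move the difference at all, such as those without a control library.

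Without the 16 named regions, 43 of the regions that rose by at least 3 were left, of which 34 had a mean of at least 10 FPKM in the controls of both days and 3 were under 1 FPKM in both. Their median level was 43.4 FPKM on day 7 and 3.24 FPKM on day 1 of ethylene-treated fruit, with 36.4 FPKM on day 7 and 31.1 FPKM on day 1 of control fruit. Of the 40 left that fell by at least 3, 6 had at least 10 FPKM in the controls of both days and 10 were under 1 FPKM in both. Their median was 4.45 FPKM on day 7 and 54.8 FPKM on day 1 of ethylene-treated fruit, with 1.62 FPKM on day 7 and 3.07 FPKM on day 1 of control fruit.

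Set against the range of the 5 control libraries, the day 1 mean of ethylene-treated fruit lay below it in 2219 (92.0%) of the 2412 regions called higher on day 7, beside 6729 of all 16821 tested. It lay above that range in 1732 (93.6%) of the 1851 regions called lower, beside 26.2% of all. On day 7 the mean was within the range of the controls in 1072 (44.4%) of the regions called higher and 819 (44.2%) of those called lower, beside 56.9% of all regions tested. It lay below the range in 1083 (44.9%) of those called higher, beside 4208 of all 16821, and above it in 789 (42.6%) of those called lower, beside 18.1% of all. The day 7 mean lay above the controls in 257 (10.7%) of the regions called higher, less often than in all regions tested (18.1%). Of these 257, 89 had a day 1 mean below the controls and 109 one that was above them already. The day 7 mean lay below the controls in 243 (13.1%) of the regions called lower, also a smaller share than the 4208 of all 16821. Of these 243, 167 had a day 1 mean above the controls and 76 one within their range. These counts are a description without a test, because the calls themselves use the day 1 libraries. Under median-of-ratios scaling the day 1 mean lay below the controls in 89.9% of regions called higher, beside 32.25% of all tested. It lay above them in 95.6% of those called lower, beside 32.41% of all.

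Control fruit changed less between the same days. In the same fit, 220 regions (1.31% of those tested) were called between day 7 and day 1 in control fruit, 44 higher and 176 lower, and with the control libraries alone 3 were called. The standard deviation of the difference over all regions was 0.81 on the log2 scale in ethylene-treated fruit and 0.44 in control fruit. The difference between the courses, as an interaction term, was called in 2391 regions (14.2%), of which 2093 were also called between the days in ethylene-treated fruit. Among the regions that changed by at least 3, the interaction was called in 49 of 51 that rose and 47 of 48 that fell, and it was called in all 16 named ones. These regions were picked by a large difference in ethylene-treated fruit, which is itself part of the interaction term. Such counts were therefore largely set by the choice and are no separate support. Both courses were called in 118 regions, with the same direction in 68 and the opposite direction in 50. This is 2.77% of the calls in ethylene-treated fruit, beside 1.31% of all regions tested that were called in control fruit. It is 53.6% of the calls in control fruit, beside 25.3% of all regions tested that were called in ethylene-treated fruit. Both contrasts use the same estimate of spread per region, so their calls are not independent. Over all 16821 regions the differences of both treatments had a Pearson's r of 0.062, given as a description since regions are not independent. Control replicate A was single-end on both days.

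**Figure D4:**
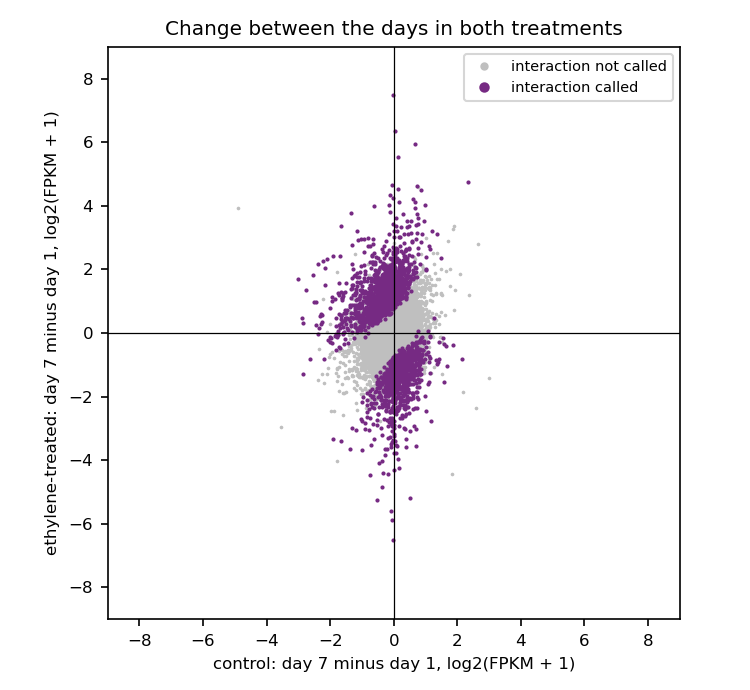
Each point is a region, with day 7 minus day 1 in log2(FPKM + 1) in control fruit on the horizontal axis and in ethylene-treated fruit on the vertical axis, on equal scales. Purple points are the 2391 regions with a called interaction, and the cloud is taller than it is wide, with standard deviations of 0.81 and 0.44.

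The called regions that gained or lost the most FPKM were looked up after their values were seen. Mba04_g39790.v1.1 (chromosome 4, 42362410 to 42363176) had 2037, 2302 and 2432 FPKM on day 7, against 141 and 134 FPKM on day 1, a ratio of the means of 16.4 and a difference of 4.02 (SE 0.22, limma adjusted p = 3.6e-06). It was among the regions with high controls, at 2896 to 4197 FPKM, so its day 1 level stood apart from the other 3 groups. A gain from low controls was seen at Mba04_g17810.v1.1 (chromosome 4, 21614554 to 21624411), which had 3370, 2859 and 2872 FPKM on day 7, against 65.2 and 63.5 FPKM on day 1 and at most 5.99 FPKM in controls. The difference was 5.53 (SE 0.28, limma adjusted p = 1.9e-06), and nearly all of the FPKM came from 1 locus that began at 21614554.

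The other 3 large gains lay in regions that the libraries divided differently, so their sums depend on the assembly. A region of chromosome 1 (20835203 to 20883459) with 6 identifiers had 6615, 6786 and 5817 FPKM on day 7, against 457 and 460 FPKM on day 1, a difference of 3.80 (SE 0.40, limma adjusted p = 1.7e-04). On day 7 nearly all of it came from loci of 1354 to 1736 bp over Mba01_g26770.v1.1, but on day 1 the highest loci were 17337 and 24231 bp long. Weighting loci by length gave a difference of 0.09 (limma adjusted p = 0.73), so the size of this gain was not stable. At chromosome 5 (25927323 to 25967868), a region with 3 identifiers had 5495, 6192 and 5824 FPKM on day 7, against 565 and 560.0 FPKM on day 1, a difference of 3.37 (SE 0.42, limma adjusted p = 3.6e-04). Within it, the locus of Mba05_g17690.v1.1 (25927382 to 25928388) had the same bounds in 4 of the 5 libraries and held 3992 and 3527 FPKM in day 7 replicates B and C, against 356 and 359 FPKM on day 1. Mba01_g18460.v1.1 (chromosome 1, 14157157 to 14179783) had 4374, 8562 and 5314 FPKM on day 7, against 2314 and 1805 FPKM on day 1, a difference of 1.51 (SE 0.32, limma adjusted p = 0.0067). This call was lost without day 1 replicate C (1.33, limma adjusted p = 0.071) and with length weighting (2.23, limma adjusted p = 0.20).

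Among called regions, the largest losses in FPKM were in regions that stayed abundant. Mba10_g13890.v1.1 (chromosome 10, 31616193 to 31620276) had 934, 1212 and 850 FPKM on day 7, against 5800.4 and 7721 FPKM on day 1, and fell by 2.76 on the log2 scale (SE 0.22, limma adjusted p = 3.7e-05). In control fruit it went the other way, with 508, 593 and 618 FPKM on day 7, against 222 and 288 FPKM on day 1 (1.17, limma adjusted p = 0.039). Mba02_g15130.v1.1 (chromosome 2, 26503524 to 26505760) had 1041, 974 and 923 FPKM on day 7, against 3060.2 and 3101 FPKM on day 1, a difference of -1.65 (SE 0.20, limma adjusted p = 3.4e-04). Mba06_g28720.v1.1 (chromosome 6, 34287428 to 34288601) had 2580, 2449 and 2277 FPKM on day 7, against 4535 and 4496 FPKM on day 1, a difference of -0.89 (SE 0.28, limma adjusted p = 0.044). This call was lost without any one of the 5 ethylene-treated libraries (limma adjusted p of 0.076 to 0.19) and with replicate letters or numbers as a block (0.063 and 0.068).

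Of regions with several loci, that on chromosome 10 (9401233 to 9414365), which has no identifier, had 5819, 6464 and 6797 FPKM on day 7, against 15226 and 14225 FPKM on day 1, a difference of -1.21 (SE 0.30, limma adjusted p = 0.016). A single locus of 12518 bp carried nearly all of it in all 5 libraries. A region of chromosome 1 (3727394 to 3741717) with 3 identifiers had 7904, 7539 and 7394 FPKM on day 7, against 19523 and 16199 FPKM on day 1, a difference of -1.22 (SE 0.34, limma adjusted p = 0.024). Quantile normalization ended both calls, at -0.29 (limma adjusted p = 0.59) on chromosome 10 and -0.07 (limma adjusted p = 0.87) on chromosome 1, and so did leaving out either day 1 library, with limma adjusted p of 0.080 to 0.10 and of 0.094 to 0.17. Leaving out any day 7 library also ended the call on chromosome 1 (0.051 to 0.061).

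The 2 most abundant regions of ethylene-treated fruit were not called. A region of chromosome 6 without an identifier (32928189 to 32932292) had 12128, 21861 and 23380.5 FPKM on day 7, against 28144 and 29252 FPKM on day 1 (-0.64, SE 0.34, limma adjusted p = 0.20). Mba09_g26900.v1.1 (chromosome 9, 37384449 to 37385409) had 13996, 18483 and 17466 FPKM on day 7, against 22301 and 21817 FPKM on day 1 (-0.42, SE 0.34, limma adjusted p = 0.41). The days did not overlap in either, and the lowest value of each on day 7 was that of the single-end replicate A. In controls the first had 3643 to 10354 FPKM and the second 36.9 to 212 FPKM.

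Differences of neighbouring regions were weakly related. Over 10070 pairs of adjacent regions at any distance, the differences between the days had a Pearson's r of 0.046, with values from -0.011 to 0.10 in 5 classes of distance under 10000 bp, as a description over pairs that share regions. Both regions were called in 719 pairs, with the same direction in 410 and the opposite direction in 309. Of all regions tested, 25.3% were called, and 56.6% of the calls were higher on day 7. Whether the counts of pairs differ from those of unrelated regions was not tested. Both regions of a pair changed by at least 2 in 5 pairs with the same direction and in 3 with opposite directions.

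The 3 opposite pairs, chosen after their values were seen, included a group on chromosome 10. Mba10_g13870.v1.1 (31602401 to 31604720) had 59.5, 72.2 and 69.1 FPKM on day 7, against 4.15 and 2.56 FPKM on day 1, a difference of 3.98 (SE 0.22, limma adjusted p = 3.7e-06). Next to it, 595 bp away, Mba10_g13880.v1.1 (31605316 to 31610485) had 2.70, 1.96 and 2.15 FPKM on day 7, against 37.3 and 34.5 FPKM on day 1, a difference of -3.50 (SE 0.20, limma adjusted p = 3.7e-06). A further 5707 bp along lies Mba10_g13890.v1.1, described above, which fell as well. In controls the first was at 102 to 214 FPKM and the second at 1.25 to 1.79 FPKM.

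On chromosome 3 the opposite regions, both without an identifier, were 11 bp apart. The left one (1649471 to 1650747) had 68.3, 63.8 and 62.4 FPKM on day 7, against 3.84 and 3.77 FPKM on day 1, a difference of 3.77 (SE 0.26, limma adjusted p = 1.2e-05). The right one (1650759 to 1655070) had 5.59, 4.13 and 3.46 FPKM on day 7, against 104 and 96.8 FPKM on day 1, a difference of -4.25 (SE 0.33, limma adjusted p = 2.7e-05). The left one was also called in control fruit, in the other direction, with 43.7, 82.6 and 66.8 FPKM on day 7, against 132 and 191 FPKM on day 1 (-1.33, limma adjusted p = 0.039). The third pair was Mba01_g27630.v1.1 and, 122 bp before it, Mba01_g27620.v1.1 (chromosome 1, 21696333 to 21699258). This neighbour was listed at 0 in all day 7 libraries, against 19.8 and 12.0 FPKM on day 1, with a difference of -4.04 (SE 0.77, limma adjusted p = 0.0040). It had 11.1 FPKM in control day 1 replicate B and was listed at 0 in the other 4 controls, and its interaction was not called (-2.24, limma adjusted p = 0.21). It held 3 and 2 loci in the day 1 libraries, and on day 7 only a locus of 476 bp at the position of the identifier. That locus ends at 21696808. The highest day 1 loci were assembled ones wholly or mostly beyond it, at 21698466 to 21699258 in A (10.7 FPKM) and 21696764 to 21699159 in C (10.6 FPKM). The difference is therefore that of the region's sum and not of the identifier's own locus. Strand is not given in the sources used here, so reads of overlapping transcripts on opposite strands cannot be told apart.

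**Figure D5:**
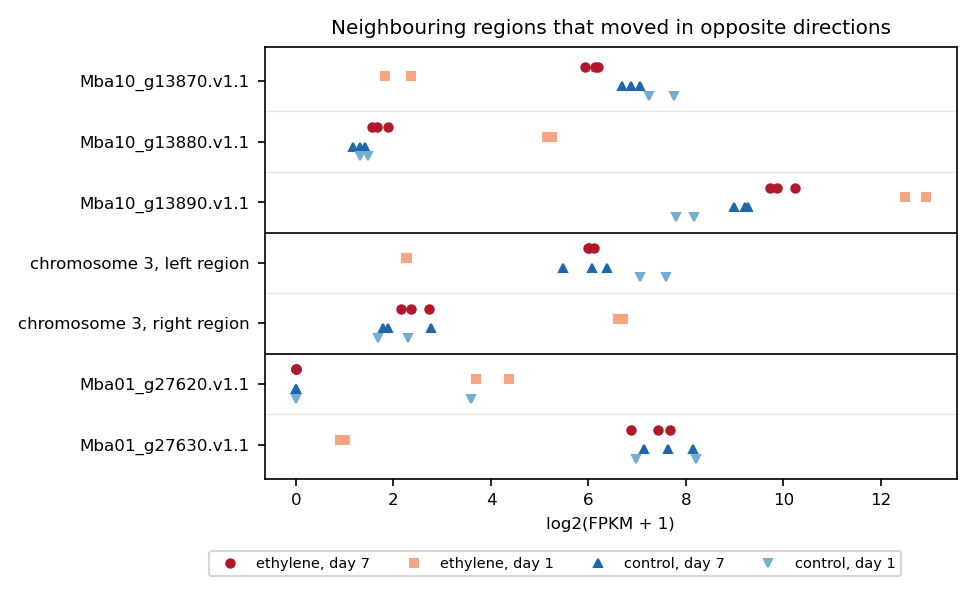
Every point is a library, at its log2(FPKM + 1) on the horizontal axis, for neighbouring regions on chromosomes 10, 3 and 1, separated by black lines. In each block, regions that were higher on day 7 (dark red) than on day 1 (light red) of ethylene-treated fruit stand beside regions that were lower, and controls are in blue.

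The calls were spread over the genome. Chromosomes 1 to 11 had between 23.4% (chromosome 1) and 28.1% (chromosome 7) of their regions called, and the unplaced scaffolds had 48 of 604 (7.95%). Regions with 1 locus in every library were called in 38.8% of cases and the others in 20.3%, and in 1686 of the 1782 called regions with 1 locus the FPKM bounds given by Cufflinks did not overlap between the days, beside 2214 (48.2%) of all 4596 regions with 1 locus in every library. Regions that had no locus in either day 1 library but one in all day 7 libraries numbered 162, with a mean of at most 8.13 FPKM on day 7, and 86 of them had a locus in all controls. The reverse was found in 72 regions, with at most 17.6 FPKM on day 1, and 1 of them had a locus in all controls. These regions were not tested, since a locus was missing from at least 1 library.

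Some regions were spread widely among the day 7 libraries. The highest and lowest day 7 library were more than 1 apart on the log2 scale in 2106 regions (12.5%), and the single-end replicate A was the farthest from the other two in 1353 of them. The day 1 libraries were more than 1 apart in 528 regions (3.14%). Mba00_g13560.v1.1 (Bscaffold231, 33897 to 34906) had 3.93 FPKM in replicate A and 774 and 729 FPKM in B and C on day 7, against 361 and 382 FPKM on day 1. Its 2 single-end controls were low too, at 9.79 FPKM on day 7 and listed at 0 on day 1, whereas its paired-end controls had 922 to 1278 FPKM. Of the 4596 regions with 1 locus in every library, 3 had all single-end libraries at least 2 below all paired-end ones, and 0 of these were called. With the paired-end libraries alone all 3 were called higher on day 7, and Mba00_g13560.v1.1 had a difference of 1.01 (limma adjusted p = 0.0050) in place of -1.40 (0.78) with all libraries. Mba08_g21100.v1.1 (chromosome 8, 35196376 to 35196895) had 1170.1, 7.50 and 180 FPKM on day 7, against 10.1 and 13.6 FPKM on day 1, and was not called (3.26, SE 1.81, limma adjusted p = 0.22). Without day 7 replicate B its difference was 5.18 and it was called (limma adjusted p = 0.028). The region of Mba01_g10460.v1.1 (chromosome 1, 7979664 to 7983284) had 3318 FPKM in day 7 replicate B and 0.0605 FPKM in C. It was listed at 0 in day 7 replicate A and in both day 1 libraries. Among controls it was high in day 1 replicate A alone, at 1053 FPKM, so that its sum followed neither the day nor the treatment. Both high values came from assembled loci, of 2091 and 3621 bp, that span the identifier. The other libraries listed only the identifier's locus of 1052 bp.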

How the data were processed

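RNA of fruit pulp was sequenced in 10 libraries. The authors checked reads with FastQC 0.11.8, trimmed them with Trimmomatic 0.38.0, aligned them with Tophat2, with the DH PKW v1.1 assembly as reference, and obtained expression values from Cufflinks (2.2.2.1 in the submitters' processing notes). They deposited FPKM values with bounds, 1 table per library, scaled by transcript length and mapped fragments in each library separately. How strand, multi-mapped reads and assembly were handled is not given in the sources used here.

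Loci of at least 300 bp were joined by overlap over all tables into 30802 regions, and FPKM values were summed per region and library. Loci under 300 bp were left out. Of 27929 regions with a locus in every library, 16821 had a mean of at least 1 FPKM over all 10 libraries and were tested. The means of the 4 groups of log2(FPKM + 1) were fitted with limma 3.58.1 (R 4.3.3) using a variance trend, two-sided tests and Benjamini-Hochberg adjustment within each contrast (day 7 minus day 1 in ethylene-treated fruit, the same in control fruit, and their interaction). A region was called at an adjusted p under 0.05. Values are FPKM, so no count test was run. The code was tested on simulated data.

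Named by rule were the 8 largest differences each way with 1 identifier, 1 locus in each of the 5 libraries, at least 10 FPKM on the higher day and no overlap between days. Other regions were named after their values were seen. The members and lists were chosen with earlier results of these data known. Lists of gene families by protein signature and promoter letters were planned and could not be run with the reference used here. Alternatives were other pseudocounts (0.1 and 5), filters (none, and a mean of at least 5 FPKM), scalings, variance models, a block of replicate letters or of numbers, layout in the model, the paired-end libraries by themselves, groups alone, other ways to join loci, and each library left out.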

Additional observations from a re-analysis of the deposited data

Results flagged for a closer look

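The course between the days differed between ethylene-treated and control fruit, by an interaction term in limma, in 2391 regions. Values below are the difference in ethylene-treated fruit minus that in control fruit on the log2 scale, and n is 5 libraries in each treatment. Most regions listed were picked by their difference in ethylene-treated fruit, which is part of this term.

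Among the regions that rose in ethylene-treated fruit, the interaction was 7.52 for Mba01_g05650.v1.1, 6.32 for Mba01_g27630.v1.1, 4.71 for Mba01_g20070.v1.1, 3.90 for Mba06_g33080.v1.1, 3.64 for Mba06_g17980.v1.1, 4.45 for Mba03_g03340.v1.1, 4.28 for Mba10_g15000.v1.1 and 3.05 for Mba08_g30320.v1.1. Among those that fell it was -6.50 for Mba11_g01060.v1.1, -5.82 for Mba09_g07750.v1.1, -5.48 for Mba05_g08270.v1.1, -4.72 for Mba11_g18710.v1.1, -4.23 for Mba04_g16920.v1.1, -4.07 for Mba04_g14710.v1.1, -4.31 for Mba04_g14010.v1.1 and -3.86 for Mba05_g22280.v1.1.

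For the regions with the largest gains in FPKM it was 3.92 on chromosome 1 (20835203 to 20883459), 5.04 on chromosome 5 (25927323 to 25967868), 2.22 for Mba01_g18460.v1.1, 5.40 for Mba04_g17810.v1.1 and 4.16 for Mba04_g39790.v1.1. For the largest losses it was -3.93 for Mba10_g13890.v1.1 and -1.80 for Mba02_g15130.v1.1, and for the abundant Mba09_g26900.v1.1, not called between the days in either treatment, it was -2.06 (limma adjusted p = 0.019). In the opposite neighbours it was 5.11 and -4.42 for the left and right regions of chromosome 3, 4.61 for Mba10_g13870.v1.1 and -3.40 for Mba10_g13880.v1.1.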

How the results depend on the processing

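With other settings, 4263 calls in ethylene-treated fruit became 2219 among regions with 1 locus in every library and 940 among loci with identical coordinates, where fewer features were tested (4596 and 2095). Leaving out a library gave 2126 to 4541, with the low values from leaving out either day 1 library. The 2391 interaction calls became 652 among loci with identical coordinates and 1147 to 2355 with a library left out, again lowest without a day 1 library of ethylene-treated fruit (1160 without A, 1147 without C). The 220 calls in control fruit became 146 with a mean of at least 5 FPKM, 332 with layout as a term, 73 with paired-end libraries alone, 3 with control libraries alone, 99 among loci with identical coordinates, and 111 to 191 with a library left out. Causes were not tested.

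Deviations from the day means had r of -0.041 between the A libraries and -0.023 between the C libraries over regions. These values cannot tell whether a shared letter marks a pair. With 2 day 1 libraries the deviations of A and C mirror each other, and the A libraries differ in layout. With the letters as a replicate block the calls were 4365 in ethylene-treated fruit, 133 in control fruit and 2136 for the interaction, and with the numbers 4339, 116 and 2458. The excess of regions higher on day 7 shrank to 1801 against 1732 without the single-end day 7 replicate A, and to 1942 against 1935 with a pseudocount of 5. The FPKM tables carry no fragment counts, and sums over several loci change with the assembly.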
